A study of Rattus norvegicus with 8 samples.

Results

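The 50 genes described here encode the extracellular matrix of the dorsal root ganglion (DRG), the enzymes that build and cut it, and the integrins through which cells hold on to it. They are the identifiers of the count table, 50 of 32623, whose symbol names a collagen, laminin, nidogen, fibrillin, thrombospondin, lysyl oxidase, integrin, ADAMTS or ADAMTS-like protein or matrix metalloproteinase, or is Fn1, Tnc or Dcn, with at least 10 counts in at least 2 libraries. The same rule looked for TIMPs, fibulins and Hspg2, Sparc, Postn and Lum, and found no identifier paired with those names. Symbols came only from the gene lists that the study called on these same libraries, and 1961 identifiers have one. The values below therefore chose the members: 47 are on the study's list of genes with a sex by injury interaction, 23 on its list of genes higher in naïve males, and 3 (Col27a1, Col5a3 and Col6a2) among its leading genes downregulated in injured males. None is on its list of genes higher in naïve females. Levels and differences are given as a description of these libraries, and no test of a member is offered as support.

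RNA was sequenced from the DRG, which holds the cell bodies of sensory neurons with their satellite glia, Schwann cells, vessels and connective tissue. The rats were adult, gonadally intact Sprague-Dawley males and females. They were either untreated (naïve) or had a chronic constriction injury (CCI) of the sciatic nerve, in which loose ligatures around the nerve produce lasting pain behaviour, with ganglia taken 14 days later. Each of the 4 groups, naïve or CCI and male or female, holds 2 libraries, each from the ipsilateral lumbar ganglia L4 to L6 of 1 rat. No group had sham surgery, so anaesthesia and incision cannot be told apart from the nerve injury. In RNA of whole ganglia, fewer cells of a type and less RNA per cell cannot be told apart either.

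Fibrillar collagens form the tensile fibres of the connective tissue around nerve and ganglion, and lysyl oxidases crosslink them. Collagen IV, laminins and nidogens form the basement membranes that wrap Schwann cells, satellite glia and vessels, and cells grip these sheets through integrins. ADAMTS proteases process procollagens or cleave proteoglycans, and thrombospondins and tenascin are matrix proteins known for changing after tissue injury.

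Total counts ranged from 39489103 to 60818457 per library, and all 50 genes reached 10 counts in all 8 libraries. Their lowest counts were 33 to 148 for Col7a1, 54 to 132 for Col4a3, 90 to 275 for Col26a1 and 107 to 942 for Col11a2. No identifier with a fitting symbol fell below the minimum. All 50 were among the 16988 genes tested. Levels are CPM, the counts of a gene relative to those of its library, scaled by TMM, a correction for differences in RNA composition, and each difference (log2FC) is the log2 ratio of 2 groups with its standard error (SE). A gene was called at a Benjamini-Hochberg adjusted p under 0.05 in edgeR's quasi-likelihood test across all genes, with an absolute log2FC above 0.5 except in the interaction. With 2 rats against 2 an exact permutation test of a single gene cannot go below p = 0.333, so the calls rest on a spread shared across genes.

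Gathered over all 50 genes, the level was highest in naïve males and lowest in CCI males. In males the summed CPM was 9340 and 8586 in naïve and 5702 and 5710 in injured rats, and in females it was 6987 and 7403 in naïve and 7436 and 7353 in injured rats. The male groups did not overlap, the female groups did. The naïve male mean was the highest of the 4 groups in 34 genes and the lowest in 0, where it was highest in 33.6% of all genes tested. The CCI male mean was the lowest in 34 genes, against 27.8% of all genes, and the CCI female mean was the highest in 14, against 19.8%. The remaining highest means were in CCI males for Itgb6 and in naïve females for Dcn.

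**Figure D1:**
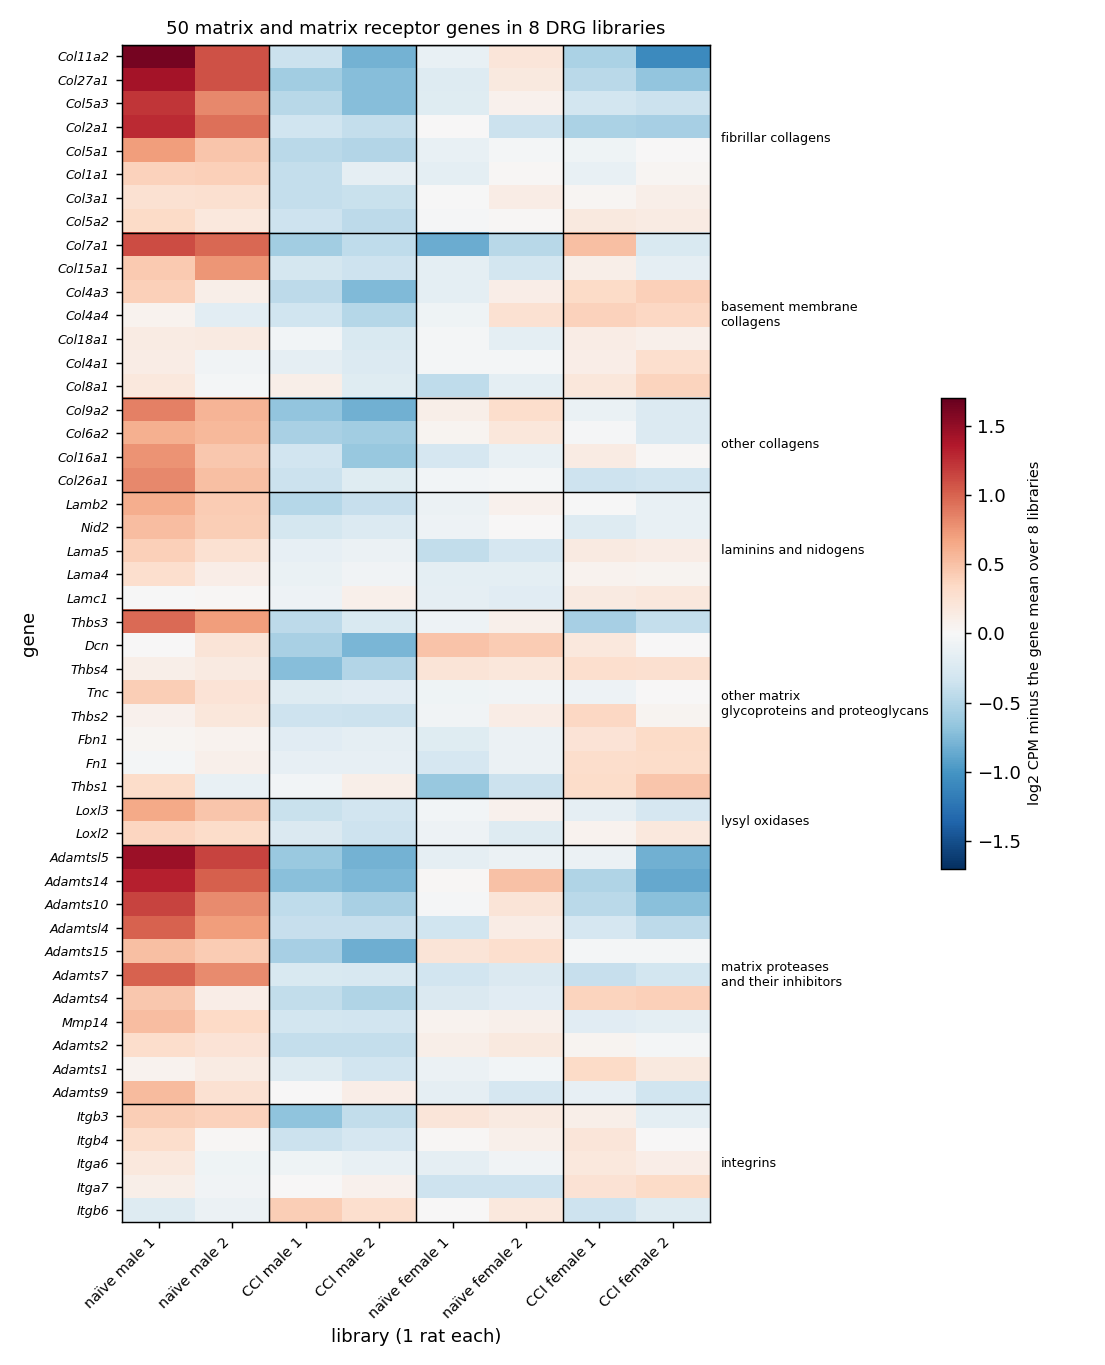
Each row is a gene and each column a library (1 rat), with colour showing log2 CPM minus the gene's mean over the 8 libraries, grouped by role. The naïve male columns are mostly above the mean (medians 0.42 and 0.29) and the CCI male columns mostly below it (both medians -0.36), and the 4 female columns have medians between -0.09 and 0.06.

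The 2 rats of a group also differed. Naïve male 1 was above naïve male 2 in 38 of the 50 genes, against 55.3% of all genes, with a median difference of 0.18 in log2 CPM. Naïve female 1 was above naïve female 2 in 12 of 50, against 49.4% of all genes, with a median of -0.10. In CCI males and in CCI females the first rat was above the second in 30 genes each, against 54.2% and 48.6% of all genes, with a median difference of 0.03 in both groups.

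After CCI in males, 33 of the 50 genes were called lower and 1 (Itgb6) higher, where 12.5% of all genes tested were called lower and 9.05% higher. The log2FC was below 0 in 47, against 51.0% of all genes, with a median of -0.74 against -0.01. Nothing is read from this count, since the genes were drawn from lists called on these libraries. On the list higher in naïve males 87.0% of the 23 genes described here were called lower in CCI males, against 83.3% of the other 627 identifiers, and on the interaction list 66.0% of 47 against 37.7% of the other 1466. In females 4 were called higher (Thbs1, Itga7, Adamts4 and Col8a1) and 2 lower (Adamts14 and Adamts10), where 3.69% and 2.0% of all genes were called in those directions, and the log2FC was above 0 in 27, against 47.6% of all genes, with a median of 0.02 against -0.02. Adamts14 and Adamts10 were called lower in both sexes. Adamts4 was the only gene called lower in males and higher in females, 30 were called lower in males and not called in females, and 13 were called in neither. A call in 1 sex and none in the other does not show a difference between them, and that difference is the interaction, given below. Both CCI males lay below both naïve males in 45 genes, against 36.6% of all genes, and above them in 1, against 36.3%. Both CCI females lay below both naïve females in 18, against 29.0%, and above in 21, against 30.5%.

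**Figure D2:**
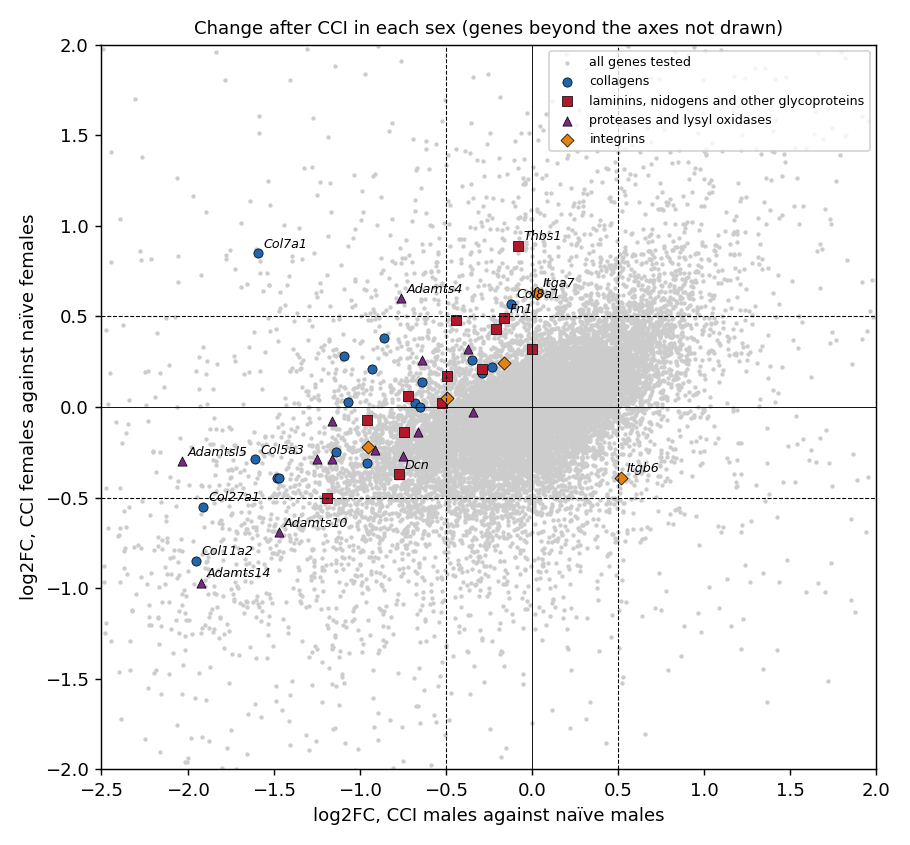
The log2FC after CCI in males (x axis) is plotted against that in females (y axis), with all genes tested in grey, the 50 genes marked by role and dashed lines at an absolute log2FC of 0.5. Of the 50, 47 lie left of 0 in males (median -0.74) and 27 lie above 0 in females (median 0.02).

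The fibrillar collagens with a symbol were all lower in CCI males. As in each role group below, only genes on the study's called lists could enter, so nothing is read from such counts. All 8 were called lower, against 12.5% of all genes tested, with a median log2FC of -1.27 and a range of -1.95 to -0.64. None was called in females, where the median was -0.14. Col3a1 (ENSRNOG00000003357), the chain of collagen III that accompanies collagen I in pliable tissue, took the most reads of the 8, a measure that also depends on transcript length. It was at 1058 and 1065 CPM in naïve and 668 and 681 in injured males, and at 881 and 962 in naïve and 905 and 951 in injured females. The CCI males stood below the other 6 libraries and the female groups overlapped. Its log2FC was -0.65 (SE 0.0685) in males and 0.00 (SE 0.0895) in females. Col1a1, the main chain of collagen I, was at 1007 and 1019 CPM in naïve males and 578 and 687 in CCI males. Its 4 female libraries lay between 683 and 785, so the higher CCI male overlapped the lowest naïve female.

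Several minor fibrillar collagens had larger differences in males, and low values in the naïve females too, though none was called between the naïve sexes. Col5a3 (ENSRNOG00000020525) encodes a chain of collagen V, which is built into collagen I fibrils and controls their width, and in peripheral nerve is made by Schwann cells. It was at 1082 and 824 CPM in naïve and 336 and 284 in CCI males, and at 404 and 490 in naïve and 376 and 362 in CCI females. The naïve males stood above all 6 other libraries, which spanned 284 to 490. Its log2FC was -1.61 (SE 0.157, 3.06-fold lower) in CCI males, -0.29 (SE 0.108) in CCI females and -1.09 (SE 0.167) in naïve females against naïve males. Col27a1 (ENSRNOG00000007657), a cartilage-type fibrillar collagen, was at 48.0 and 37.9 CPM in naïve males and 11.9 and 10.8 in CCI males. It was at 15.5 and 20.1 in naïve and 13.1 and 11.3 in CCI females, so the CCI groups of both sexes overlapped. Col11a2, whose product joins cartilage fibrils, had the largest fall of the 8 in males (log2FC -1.95, SE 0.243), from 18.0 and 12.4 to 4.52 and 3.30 CPM. Its female values were 5.35 and 6.71 in naïve and 3.98 and 2.74 in CCI rats, a log2FC of -0.85 (SE 0.229) that was not called. Col2a1, Col5a1 and Col5a2 were called lower in males by log2FC of -1.48, -1.07 and -0.64.

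3 promoter windows are printed as the regulatory sequence next to the transcripts with contrasting patterns: Col5a3 and Col27a1, which were among the study's leading genes downregulated in CCI males, and Thbs1, which was called higher in CCI females. Each is the 250 bases before the RefSeq start of the gene in GRCr8, 5′ to 3′ on the gene's strand: chr8:27625949-27626198 (minus strand) for Col5a3, chr5:81662658-81662907 (plus strand) for Col27a1 and chr3:125510000-125510249 (plus strand) for Thbs1. GRCr8 is not the rn6 build of the counts. Capitals mark matches, on either strand, to GGGCGG (the core of the Sp1 box), CCAAT, GCGNGGGCG (EGR, which can overlap the Sp1 letters) and GGAATG (TEAD).
Col5a3: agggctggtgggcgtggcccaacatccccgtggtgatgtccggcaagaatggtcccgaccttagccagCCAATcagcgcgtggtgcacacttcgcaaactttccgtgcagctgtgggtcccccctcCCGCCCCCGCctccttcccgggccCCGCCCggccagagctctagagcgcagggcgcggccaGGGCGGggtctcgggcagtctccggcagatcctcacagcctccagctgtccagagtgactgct
Col27a1: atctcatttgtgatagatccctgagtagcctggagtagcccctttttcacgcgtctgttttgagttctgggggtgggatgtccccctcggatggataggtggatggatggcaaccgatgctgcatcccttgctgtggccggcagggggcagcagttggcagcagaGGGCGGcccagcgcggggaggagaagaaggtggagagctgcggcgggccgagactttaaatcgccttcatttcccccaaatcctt
Thbs1: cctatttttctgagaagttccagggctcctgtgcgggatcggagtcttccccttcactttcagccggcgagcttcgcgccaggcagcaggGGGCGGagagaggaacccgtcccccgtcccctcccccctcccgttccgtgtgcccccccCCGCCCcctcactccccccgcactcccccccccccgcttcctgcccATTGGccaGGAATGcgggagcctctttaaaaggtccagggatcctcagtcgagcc

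All 3 windows hold the Sp1 letters, only the Col5a3 window of the 3 holds the EGR letters, and only the Thbs1 window the TEAD letters. Of the 50 genes, 34 had a window in the RefSeq table. GGGCGG was present in 22 of these 34 (64.7%), against 32.4% of all 27457 windows of the same length, CCAAT in 7 (20.6% against 34.3%), TATAAA in 5 (14.7% against 13.1%), GGAATG in 6 (17.6% against 11.8%) and GCGNGGGCG in 5 (14.7% against 4.53%). TGANTCA, the AP-1 letters, was found in 0 of 34, against 6.36% of all windows. The windows of these genes were also richer in G and C, with a median of 64.0% against 52.0% over all windows, and GC content was not matched. These shares describe sequence and say nothing of binding.

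The 7 collagens of or beside basement membranes with a symbol lay above 0 in females and below 0 in males after CCI. All 7 are on the study's interaction list, so nothing is read from this split. Of all genes tested, 47.6% lay above 0 in females and 51.0% below 0 in males. All 7 had a log2FC above 0 in females, between 0.19 and 0.85, with Col8a1 called, and all 7 had a log2FC below 0 in males, between -1.59 and -0.12, with Col15a1, Col7a1 and Col4a3 called lower. The Col4a3 call was lost with each of the 4 male libraries left out in turn and in 2 of 8 other alternatives. Col4a1 (ENSRNOG00000016281), part of the collagen IV network found in every basement membrane, took the most reads of the 7. It was at 409 and 361 CPM in naïve and 337 and 318 in injured males, and at 367 and 366 in naïve and 404 and 458 in injured females. Its log2FC of -0.23 (SE 0.082) in males and 0.22 (SE 0.0892) in females was called in neither sex. Col8a1, a short-chain collagen of vessel walls, was at 20.8 and 25.0 CPM in naïve and 32.2 and 36.4 in CCI females (log2FC 0.57, SE 0.117). Its male groups overlapped, at 31.7 and 27.4 in naïve and 30.0 and 24.3 in CCI rats. Col7a1, the anchoring fibril collagen of skin, had the largest interaction but few counts. It was at 2.83 and 2.57 CPM in naïve and 0.839 and 0.949 in CCI males, and at 0.698 and 0.922 in naïve and 1.86 and 1.07 in CCI females, the last pair far apart.

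The other collagens, which sit on fibril surfaces or form beaded filaments, were all called lower in CCI males, 4 of 4 against 12.5% of all genes. Their log2FC lay between -1.47 and -0.96. Col16a1, a fibril-associated collagen, was at 248 and 200.2 CPM in naïve and 117 and 93.4 in injured males, and at 119.7 and 134 in naïve and 161 and 148 in injured females. Both CCI females lay above both naïve females, with a log2FC of 0.28 (SE 0.0928) that was not called. Col9a2, a partner of collagen II, was at 24.9 and 20.5 CPM in naïve males and 8.62 and 7.76 in CCI males, and at 14.6 and 16.9 in naïve and 12.6 and 11.6 in CCI females. Col6a2, of the beaded-filament collagen VI around Schwann cells and fibroblasts, fell 2.21-fold in CCI males, from 166 and 161 to 75.1 and 72.8 CPM. Its female values were 113 and 125 in naïve and 108 and 93.5 in CCI rats, above both CCI males.

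Among the laminins and nidogens, Lamb2 and Nid2 were called lower in CCI males, 2 of 5 against 12.5% of all genes, and none was called in females. Lamb2 (ENSRNOG00000047768), a laminin beta chain, was at 270 and 236 CPM in naïve males and 125 and 134 in CCI males. It was at 164 and 185 in naïve and 175 and 161 in CCI females, which overlapped. Its log2FC was -0.96 (SE 0.0854) in males and -0.07 (SE 0.0945) in females. Lamc1, the gamma chain shared by most laminins, was at 241 and 247 CPM in naïve males and 229.6 and 258 in CCI males, a log2FC of 0.00 (SE 0.0817). In females it was at 219 and 213 in naïve and 269 and 275 in CCI rats, groups that did not overlap, though the log2FC of 0.32 (SE 0.0774) was under the threshold. Lama5 was at 33.1 and 29.8 CPM in naïve and 22.8 and 23.4 in CCI males, and at 18.8 and 20.5 in naïve and 27.7 and 27.3 in CCI females. Both of its differences, -0.44 (SE 0.0711) in males and 0.48 (SE 0.0967) in females, stayed under the threshold of 0.5.

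The glycoproteins and proteoglycans held both patterns. Thbs3, Dcn, Thbs4 and Tnc were called lower in CCI males, 4 of 8 against 12.5% of all genes, and Thbs1 was called higher in CCI females. Dcn (ENSRNOG00000004554) encodes decorin, a small proteoglycan of fibroblasts that coats collagen fibrils. It was at 717 and 825 CPM in naïve and 487 and 416 in injured males, and at 993 and 957 in naïve and 803 and 712 in injured females. Unlike most of the 50 genes it was higher in both naïve females than in both naïve males (log2FC 0.34, SE 0.0941, not called). Its log2FC after CCI was -0.77 (SE 0.120) in males and -0.37 (SE 0.0943) in females, the latter under the threshold.

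Thbs1 (ENSRNOG00000045829), a secreted activator of latent TGF-beta that promotes synapse formation, had the largest rise in females. It was at 21.9 and 26.6 CPM in naïve and 42.5 and 47.8 in CCI females, a log2FC of 0.89 (SE 0.118). The male groups overlapped at 42.7 and 31.4 in naïve and 33.2 and 36.6 in CCI rats, and naïve male 1 reached the CCI female level. Fn1, fibronectin, was at 146 and 167 CPM in naïve and 220.1 and 222 in CCI females, and its log2FC of 0.49 (SE 0.0922) was just under the threshold. In males it was at 174 and 190.2 in naïve and 163 and 162 in CCI rats. Thbs4, a thrombospondin of tendon and nerve that has been studied in pain after nerve injury, fell in males from 78.0 and 81.3 to 44.4 and 51.8 CPM, while all 4 female libraries lay between 83.3 and 88.8. Thbs3 was at 13.3 and 11.2 CPM in naïve males and 5.0 and 5.69 in CCI males. Its female values were 6.4 and 7.26 in naïve and 4.6 and 5.12 in CCI rats.

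**Figure D3:**
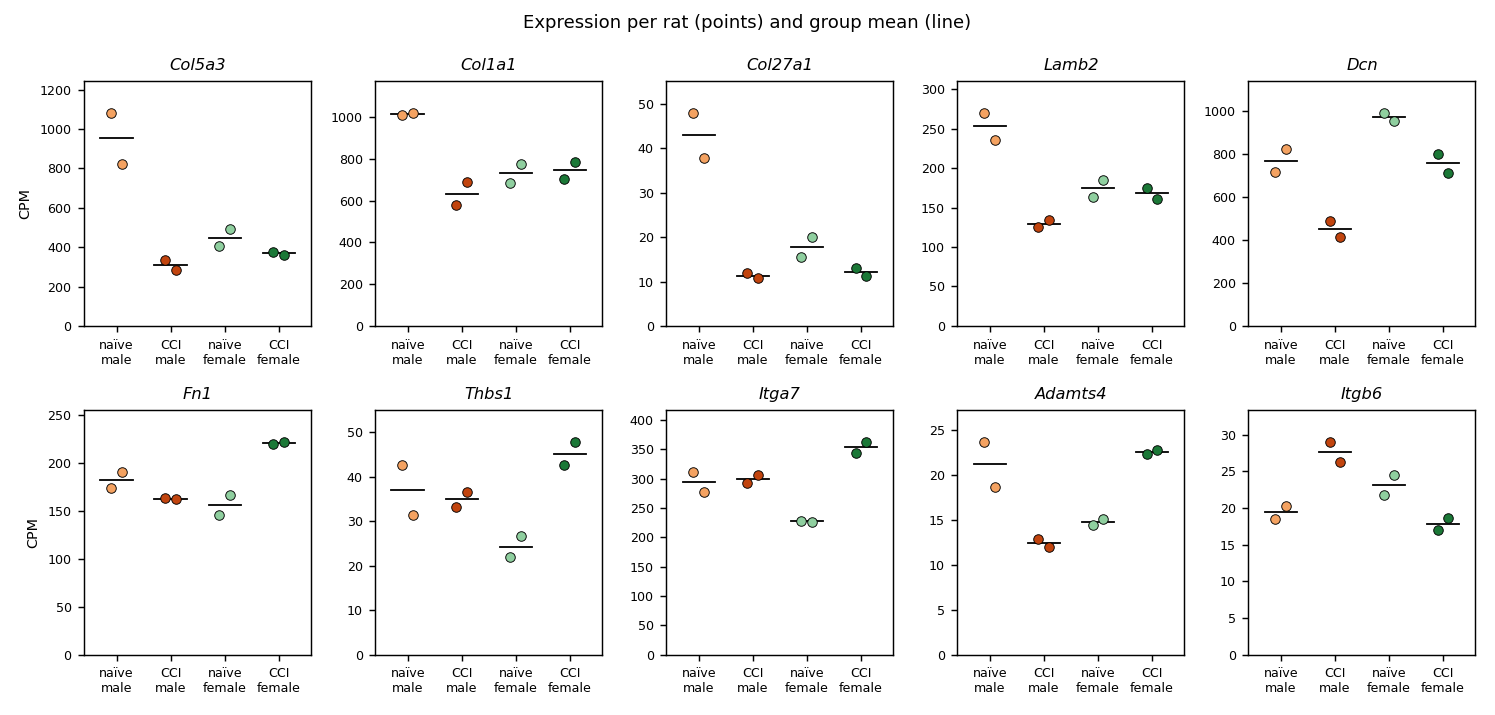
CPM (y axis from 0) of 10 genes in each rat, with points for the 2 rats of a group and a line at their mean. Col5a3, Col27a1 and Lamb2 are highest in both naïve males, Thbs1, Fn1 and Itga7 are higher in both CCI females than in both naïve females, and Itgb6 is highest in the CCI males (29.0 and 26.3 CPM).

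Most of the enzyme genes were also called lower in males. Both lysyl oxidase genes were called lower in CCI males, against 12.5% of all genes, with log2FC of -0.91 (SE 0.0904) for Loxl3 and -0.64 (SE 0.104) for Loxl2. Loxl3 was at 18.7 and 16.7 CPM in naïve and 9.23 and 9.53 in CCI males, and at 11.6 and 12.6 in naïve and 10.8 and 9.88 in CCI females. Loxl2 was at 10.4 and 10 CPM in naïve males and 6.78 and 6.31 in CCI males. Its female values were 7.59 and 6.95 in naïve and 8.45 and 9.13 in CCI rats, opposite in direction to the males and not called.

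Of the 11 proteases and ADAMTS-like genes, 9 were called lower in CCI males, against 12.5% of all genes, and only Adamts1 and Adamts9 were not. The median log2FC over the 11 was -1.16. Mmp14, a membrane-bound metalloproteinase that cuts fibrillar collagen and activates other proteases, took the most reads of the 11. It was at 214 and 189 CPM in naïve and 120 and 119 in injured males, and at 156 and 159 in naïve and 130 and 133 in injured females. Adamtsl5, a secreted ADAMTS relative without protease activity, had the largest fall of the 50 genes in males (log2FC -2.03, SE 0.148), from 15.5 and 12.6 to 3.63 and 3.20 CPM. In females it was at 5.07 and 5.27 in naïve rats, and the CCI rats were apart from each other at 5.27 and 3.17. Adamts14, which trims procollagens, fell in both sexes, from 17.2 and 13.8 to 4.18 and 4.0 CPM in males and from 6.93 and 9.67 to 4.81 and 3.71 in females. Its log2FC was -1.92 (SE 0.136) and -0.97 (SE 0.215). Adamts10, which binds fibrillin microfibrils, was the other gene called lower in both, with log2FC of -1.47 (SE 0.129) and -0.69 (SE 0.126).

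Adamts4 (ENSRNOG00000003538), an aggrecanase that cleaves chondroitin sulfate proteoglycans, was called in opposite directions in the sexes. It was at 23.7 and 18.7 CPM in naïve males and 12.9 and 12.0 in CCI males, a log2FC of -0.76 (SE 0.128). It was at 14.5 and 15.1 in naïve and 22.4 and 22.8 in CCI females, a log2FC of 0.60 (SE 0.0974). The groups did not overlap within either sex, and both CCI females lay between the 2 naïve males.

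The 5 integrins had a median log2FC of -0.16 in CCI males, the nearest to 0 of the role groups, with Itgb3 called lower and Itgb6 higher. Itgb4, the beta subunit that joins Schwann cells and perineurial cells to laminin, was at 961 and 796 CPM in naïve and 606 and 643 in CCI males, and at 793 and 829.7 in naïve and 905 and 787 in CCI females. The CCI males stood below the other 6 libraries, and the log2FC of -0.49 (SE 0.107) was just short of the threshold. Itgb3, the beta subunit of a vitronectin receptor, fell from 15.7 and 15.5 to 7.30 and 8.81 CPM in males. Its female values, 13.6 and 13.1 in naïve and 12.6 and 10.4 in CCI rats, lay between the male groups. Itga7, the alpha subunit of a laminin receptor that neurons raise during axon regeneration, was called higher in females (log2FC 0.63, SE 0.0793), from 228 and 227 to 344 and 363 CPM. Its male groups overlapped at 311 and 278 in naïve and 293 and 306 in CCI rats.

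Itgb6 (ENSRNOG00000008346), the beta subunit of the integrin that activates latent TGF-beta, was the only gene of the 50 with an interaction below 0. It was at 18.5 and 20.3 CPM in naïve males and 29.0 and 26.3 in CCI males, a log2FC of 0.52 (SE 0.0875). It was at 21.8 and 24.5 in naïve and 17.0 and 18.6 in CCI females, a log2FC of -0.39 (SE 0.109) that was not called. The male call sits close to the threshold and is lost with upper-quartile scaling, with a stricter count filter, and without naïve male 1 or CCI male 1.

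In the naïve sexes, 0 of the 50 genes were called by edgeR's quasi-likelihood test on those 4 libraries, where 0.0706% of all genes were called. The differences nevertheless lay mostly 1 way. The log2FC of females against males was below 0 in 46, against 50.8% of all genes, with a median of -0.46 against -0.01. At an unadjusted p under 0.05, 36 were lower in females and 2 higher, where 14.0% and 11.6% of all genes were. DESeq2 on the same libraries called 22 lower and none higher, where it called 4.29% of all genes lower. The edgeR fit on all 8 libraries also called 22 lower, against 4.08% of all genes, and edgeR without a count filter called 6 lower, against 0.451%. Nothing is read from these counts, since 23 of the genes are on the study's list of genes higher in naïve males. All 23 had a log2FC below 0, as had 100% of the other 627 identifiers of that list, with medians of -0.84 and -0.72. Without naïve male 2, edgeR called 9 lower (208 of 16988 over all genes) and without naïve male 1 it called 1 (50 of 16988). Both naïve females lay below both naïve males in 41 genes, against 30.5% of all genes, and above them in Dcn, Thbs4 and Itgb6, against 29.5%. The lowest log2FC were -1.73 (SE 0.262) for Col7a1, -1.44 (SE 0.147) for Adamtsl5 and -1.33 (SE 0.227) for Col11a2. By role the median was -0.88 for fibrillar collagens, -0.62 for proteases and for the other collagens, -0.51 for laminins and nidogens and for lysyl oxidases, -0.28 for basement membrane collagens, -0.20 for glycoproteins and proteoglycans, and -0.16 for integrins.

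Between the injured sexes most differences lay the other way. CCI females against CCI males had a log2FC above 0 in 42 of 50 genes, against 50.6% of all genes, with a median of 0.33 against 0.00. This comparison is part of the interaction for which the study listed 47 of the genes, so nothing is read from this count or those that follow. On that list 89.4% of the 47 were above 0, against 46.0% of the other 1466 identifiers. On the list higher in naïve males 69.6% of the 23 were, against 41.5% of the other 627. There were 6 genes called higher in CCI females (Adamts4, Adamts15, Col4a4, Col5a2, Dcn and Thbs4) and 1 lower (Itgb6), where 0.524% and 0.536% of all genes were called. The differences of the 6 ran from 0.55 (SE 0.0661) for Col5a2 to 0.89 (SE 0.0925) for Thbs4. Col4a4, a chain of specialised basement membranes, was at 25.8 and 23.3 CPM in CCI males and 42.9 and 41.8 in CCI females. Adamts15, another protease of proteoglycans, was at 20.1 and 16.7 in CCI males and 29.1 in each CCI female. Both CCI females lay above both CCI males in 38 genes, against 24.7% of all genes, and below in 4, against 26.5%. These calls were lost when either CCI female was left out, where far fewer genes were called over the whole table too. With 1 library left out, the log2FC ran from 0.51 to 0.60 for Col5a2 and from 0.77 to 1.01 for Thbs4. For Itgb6 it ran from -0.70 to -0.56.

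The interaction, the log2FC after CCI in females minus that in males, was above 0 in 49 of 50 genes, against 51.5% of all genes, with a median of 0.72 against 0.02. At an adjusted p under 0.05, 23 were called higher and Itgb6 lower, where 1.04% and 0.547% of all genes were called. Since 47 of the genes have a symbol because the study listed them for this same interaction, nothing is read from that count. Within that list the direction can be set beside the list itself: 46 of its 47 genes described here (97.9%) had an interaction above 0, against 53.2% of its other 1466 identifiers tested. On the list higher in naïve males both shares were high, 23 of 23 against 97.9% of the other 627. Part of the 47 genes is on both lists, which these shares do not separate, so nothing is read from them either. DESeq2 called 44 of the 50 higher in the interaction, where it called 4.83% of all genes, and edgeR without a count filter called 38, against 2.56%. The largest was 2.45 (SE 0.444) for Col7a1, and the next among called genes were 1.38 (SE 0.195) for Col16a1, 1.37 (SE 0.227) for Col27a1 and 1.37 (SE 0.167) for Adamts4. Fibrillar collagens had a median of 1.11 with 6 of 8 called, the other collagens 1.0 with 3 of 4, proteases 0.87 with 5 of 11, lysyl oxidases 0.80 with 1 of 2, basement membrane collagens 0.70 with 1 of 7, glycoproteins and proteoglycans 0.66 with 3 of 8, laminins and nidogens 0.61 with 3 of 5, and integrins 0.55 with Itga7 called higher and Itgb6 lower. These comparisons share libraries: the naïve males enter the male comparison, the naïve comparison and the interaction.

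Many calls were lost when 1 rat was left out, where the lone rat of a group is assumed to vary like the others. In the interaction none of the 24 was called when naïve male 1, CCI male 1, CCI male 2, naïve female 1, CCI female 1 or CCI female 2 was left out, each of which left at most 2 called genes in the whole table, while 24 higher and 1 lower were called without naïve male 2, and 23 higher and 1 lower without naïve female 2. The male calls were 30 lower without naïve male 1, 34 without naïve male 2, 26 without CCI male 2, where 1221, 2098 and 905 of all 16988 genes were called lower, and 0 without CCI male 1, where no gene of the whole table was called either, although 6494 had an unadjusted p under 0.05. In females the calls in both directions were lost without CCI female 1 or CCI female 2, where far fewer genes were called over the whole table too. Among the genes called higher, the log2FC stayed between 0.75 and 1.04 for Thbs1 and between 0.44 and 0.71 for Col8a1. It stayed between 0.60 and 0.67 for Itga7 and between 0.57 and 0.63 for Adamts4. Among those called lower, it stayed between -1.20 and -0.71 for Adamts14 and between -0.81 and -0.56 for Adamts10. The median log2FC of the 50 genes stayed between -0.74 and -0.69 in males and between 0.68 and 0.81 in the interaction.

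Genes that act with the collagens could be followed only where the study's lists gave a symbol, so they share the selection. For collagen maturation, 5 of 17 genes sought had one, and 4 were called lower in CCI males: Bmp1, a procollagen C-proteinase, by a log2FC of -1.37 (SE 0.103), Pxdn, which crosslinks collagen IV, by -1.33 (SE 0.0675), P3h1, a prolyl hydroxylase, by -0.72 (SE 0.0917), and Pcolce, an enhancer of Bmp1, by -0.68 (SE 0.0635). None was called in females, and Crtap was called in neither sex. Of 13 of 49 other matrix genes with a symbol, 6 were called lower in CCI males (Agrn, Emilin1, Hapln2, Smoc2, Tgfbi and Vtn) and Spock3 higher. In CCI females, Reln and Sparcl1 were called higher and Hapln1, Hapln2, Hapln4 and Vtn lower. Sparcl1, a secreted relative of SPARC, was at 129.8 and 130.3 CPM in naïve and 216 and 251 in CCI females, and between 221 and 229 in the 4 males. Of 4 of 16 other receptors with a symbol, the glypicans Gpc2 and Gpc4 were called lower in CCI males and none in females. Tgfbr1, the only gene with a symbol of 12 sought for TGF-beta signalling, was called in neither sex.

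Other marker lists moved with these genes, and their part in the results was not tested. Only genes on the study's called lists could enter them, so markers that did not change are largely missing and nothing is read from their counts. Of all genes tested, 12.5% were called lower in CCI males and 2.0% in CCI females. Schwann cell and myelin markers (8 of 13 with a symbol, among them Mbp, Prx and Sox10) summed to 13525 and 11108 CPM in naïve and 3542 and 3391 in injured males, and to 9550.2 and 7785 in naïve and 5627 and 4343 in injured females. All 8 were called lower in CCI males and 3 in CCI females. Nuclear transcripts that retain introns, used as a sign of RNA quality and of nuclear RNA (10 of 12 with a symbol, among them Leng8 and Clk1), summed to 2874 and 2236 CPM in naïve males, against 709 to 1388 in the other 6 libraries, and all 10 were called lower in CCI males and 4 in CCI females. In naïve females against naïve males all 10 had a log2FC below 0, against 50.8% of all genes, with a median of -0.97. Clk1, Clk4 and Ddx39b, for example, are on the study's list of genes higher in naïve males, so nothing is read from this direction. In these sums of selected genes the naïve males stood highest, as they did in the matrix genes, and naïve male 1 was above naïve male 2 in all 3 sums.

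Sensory neuron markers (8 of 14) ran the other way, with 17371 and 19683 CPM in naïve males and 28740.5 and 29477 in CCI males, against 21298 to 26932 in the 4 females. All 8 were called higher in CCI males and 1 in CCI females, against 9.05% and 3.69% of all genes. The lists in this paragraph share the selection too. Fibroblast markers that are not among the 50 genes were Apod, Dpt and Pdgfra. Apod and Pdgfra were called lower in CCI males and neither in CCI females, while Dpt, at 1.43 to 5.72 CPM, was called in neither. In CCI males Dpt ran the other way, with a log2FC of 0.69 (SE 0.26), and in CCI females it was at -0.68 (SE 0.203). These genes are too few to describe fibroblasts. Skeletal muscle markers (5 of 13) summed to 71.7 and 76.1 CPM in CCI males and 5.19 to 18.3 in the other libraries, and red blood cell markers (7 of 7) to 129.6 in naïve male 1 and 1388 in naïve male 2, 1351 and 2029 in the naïve females and 168 to 252 in the CCI rats. The macrophage, satellite glia and endothelial and mural lists had 1, 1 and 3 genes with a symbol, too few to describe those cells. Sequencing was done in 2 batches per the study's methods, and the batch of each library is not given in the sources used here. To look for batch effects, the study resequenced samples of both batches together in 1 lane and correlated the runs. It applied no batch correction. The column names of naïve male 1 and CCI male 1 carry an extra letter that no other column has, and whether it marks a batch is not stated. With the replicate number as a block, which separates these 2 libraries from the other males, 33 genes were called lower in CCI males, against 2664 of all 16988.

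**Figure D4:**
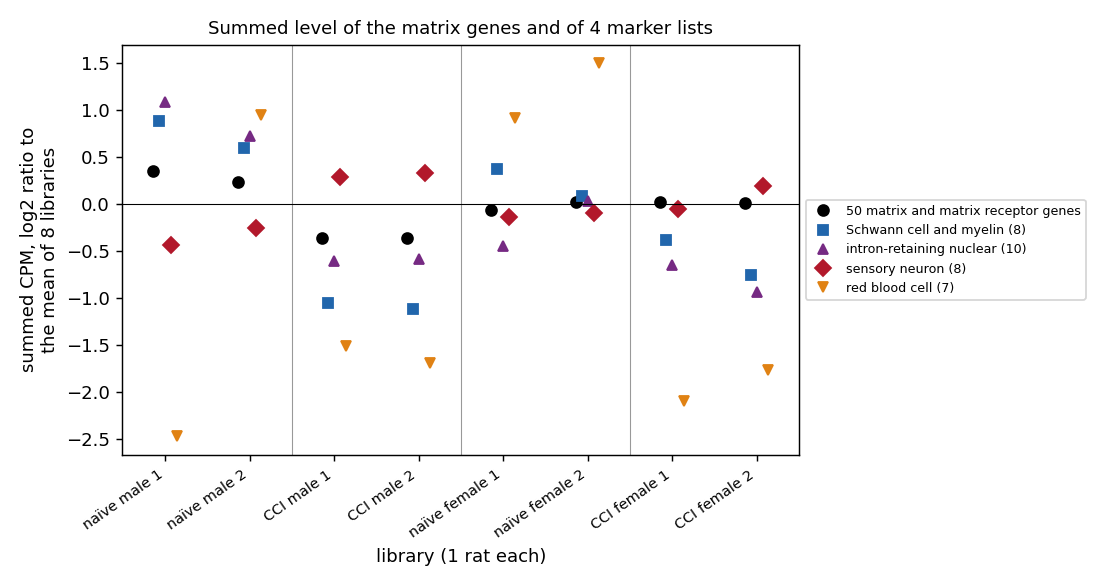
Summed CPM of the 50 matrix and receptor genes and of 4 marker lists in each library, as the log2 ratio to the list's mean over the 8 libraries. The matrix, Schwann cell and intron-retaining sums are highest in the 2 naïve males, the neuron sum is highest in the 2 CCI males, and the red blood cell sum is highest in naïve male 2 and the naïve females.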

How the data were processed

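RNA was measured in 8 libraries, 1 per rat, in 4 groups of 2 taken from the sample titles. Per the study's methods, the authors prepared strand-specific poly(A) libraries, sequenced them as pairs, aligned reads to rn6 with HISAT2, removed ribosomal reads and counted them per Ensembl gene with featureCounts. The submitters' processing notes also name CASAVA 1.8.2. The deposited table holds raw counts, without normalization or batch correction, and every column was matched to a sample.

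Symbols came from the study's gene lists, because the reference table at hand does not pair them with Ensembl identifiers. The genes, their roles and the other lists were chosen with earlier results of these data known. Counts were analysed in R 4.3.3 with edgeR 4.0.16 (filterByExpr, TMM, glmQLFit in its legacy form and glmQLFTest), with DESeq2 1.42.0 among the alternatives and checks. Filtering left 16988 genes, over which p-values were adjusted by Benjamini-Hochberg. Each pair of groups was fitted on its 4 libraries and the interaction on all 8. The SE of a log2FC comes from the same fit. At this depth counting error is small for most of the genes, and the 2 rats per group limit precision. The scripts recovered known changes in counts simulated with a single spread for all genes and no batch. Those changes were placed in the CCI male libraries only and were larger than many reported here. The check therefore does not cover smaller changes or a batch.

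In each role group, values in every library are given for the gene with the highest mean CPM and those with the largest log2FC in CCI males and in the interaction. Col1a1, Col5a3, Col6a2, Col8a1, Fn1, Thbs4, Adamts14, Adamts15, Col4a4, Adamts4, Itga7, Itgb3 and Sparcl1 were added after their values were seen where that rule did not name them. Alternatives were DESeq2, a fit on all 8 libraries, other scalings, other count filters, a replicate block, leaving out each library and, added after seeing the data, edgeR's version 4 fit.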

Additional observations from a re-analysis of the deposited data

Results flagged for a closer look

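Genes are given here whose response to CCI differed between the sexes by the interaction test of edgeR over all 8 libraries, with an adjusted p under 0.05. The log2FC after CCI in females exceeded that in males in 23 genes and was lower in 1. Because the study's own interaction list supplied most of the symbols, these values describe the selection and are no independent evidence. The differences in log2FC were 1.34 for Col5a3, 1.37 for Col27a1, 1.12 for Col5a1, 1.10 for Col2a1, 0.80 for Col5a2 and 0.67 for Col3a1 among the fibrillar collagens. They were 1.38 for Col16a1, 1.09 for Col9a2 and 0.91 for Col6a2 among the other collagens, and 2.45 for Col7a1 among the basement membrane collagens. The laminins and nidogens gave 0.93 for Lama5, 0.91 for Lamb2 and 0.61 for Nid2. The glycoproteins gave 0.80 for Thbs4, 0.66 for Fn1 and 0.65 for Fbn1. The enzymes gave 1.37 for Adamts4, 1.10 for Adamts7, 0.87 for Adamts15, 0.70 for Adamts1, 0.54 for Adamts2 and 0.91 for Loxl2. The integrins gave 0.61 for Itga7 and -0.89 for Itgb6.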

How the results depend on the processing

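No called gene changed sign under any alternative run. Of the genes not called, with 1 library left out the sign turned in 4 in the naïve sexes, 4 in CCI males, 8 in CCI females and 7 between the CCI sexes, all with an absolute log2FC of at most 0.31, and in 0 in the interaction. Under the other alternatives it turned in Lamc1 in males and Col3a1 in females, both at 0.00. In the naïve sexes the genes called lower went from 0 to 22 with DESeq2, 22 with the fit on all 8 libraries and 6 without a count filter, and ranged from 0 to 9 when 1 library was left out, with a median log2FC of -0.51 to -0.35. After CCI in males the 1 gene called higher became 0 under upper-quartile scaling and under the filter of 10 counts in every library, and ranged from 0 to 1 with a library left out, and the genes called lower from 0 to 34. After CCI in females the genes called lower went from 2 to 4 with DESeq2 (478 of 16988 over all genes) and to 4 without a filter (510 of 23944). A block on the replicate number gave 3 (491 of 16988). With a library left out they ranged from 0 to 5, those called higher from 0 to 6, and the median from 0.00 to 0.06. Between the CCI sexes DESeq2 called 10 higher, against 226 of all 16988 genes, and with a library left out the calls varied, as they did over all genes. In the interaction DESeq2 called 44 higher, against 4.83% of all genes, and the fit without a filter 38, against 2.56%. With a library left out the calls varied, as they did over all genes, and the median ranged from 0.68 to 0.81. The cause of these shifts was not tested. Of the calls, 32 of 34 in males, 6 of 6 in females, 3 of 7 between the CCI sexes and 19 of 24 in the interaction held under every alternative that kept all libraries.

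With the replicate number as a block, 3 genes were called higher and 0 lower between the CCI sexes, where 28 and 40 of all 16988 genes were. The block gave 33 lower in CCI males, against 2664 of all genes, and 22 higher in the interaction, against 211. Deviations of same-numbered rats correlated at 0.731 for CCI against naïve males, 0.129 for the naïve sexes, -0.00788 for CCI against naïve females and -0.02 between the CCI sexes. The labels do not say that a number marks a shared day or batch. The first rats of both male groups share an extra letter in their column names, and its meaning is not stated, so whether the numbers pair the males cannot be settled here.

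The planned repeat over all identifiers by symbol was not run, since the reference table used here holds no Ensembl identifiers. The family is therefore known only where the study called a gene, and members that did not change are largely missing from it. Depth limits mainly Col7a1 and Col4a3.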
